A study of Drosophila melanogaster with 8 samples.

Results

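roo is a long terminal repeat (LTR) retrotransposon of the BEL/Pao group, one of the most abundant transposable elements of Drosophila melanogaster. It copies itself through an RNA that is reverse transcribed by proteins the element encodes, and in the germline such elements are held in check largely by piRNAs, small RNAs loaded into Piwi proteins. N6-methyladenine (6mA) is a methylated form of adenine, and an antibody against it enriches DNA fragments that carry it, without showing which adenine is modified. A peak is a stretch of sequence over which immunoprecipitated reads exceeded the input.

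The members described here are the peaks that the deposited transposon lists place on the roo sequence, chosen by that sequence name alone. They number 34 of 144 transposon peaks over 4 libraries, and joining those that share at least 1 bp gave 9 positions along the element out of 47 on 8 transposons. The libraries are 2 from control ovaries and 2 from ovaries of the genotype Sam-S_OE, in which UASp-Sam-S was driven in the germline by nanos-gal4. The enzyme it encodes, S-adenosylmethionine synthetase, produces the donor of methyl groups for methyltransferases. The labels give the other genotype as control only, so whether those flies carry the driver or the empty insertion is not given, and no age is given. The libraries of each genotype come from 2 batches, and they are called control 1 and Sam-S 1 in batch 1, and control 2 and Sam-S 2 in batch 2. DNA came from whole ovaries, which hold somatic as well as germline cells, so more methylated DNA per cell and more cells with methylated DNA cannot be told apart. The tissue label could not be checked against marker genes in lists of DNA peaks. No sequence of roo was among the files, so its terminal repeats and reading frames were not placed on the positions below.

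The 4 libraries held from 39591292 to 49800736 immunoprecipitated tags and their inputs from 39571865 to 52344880, as recorded for the companion genome lists. Control 2 stood apart in the transposon lists: its fold was below that of control 1 at 20 of the 21 positions with a peak in all 4 libraries, 5 of 5 on roo among them. Results that rest on it are given with and without it. With 2 libraries a genotype, the two-sided exact permutation test over the 6 assignments of libraries cannot give a p below 0.333, so no difference between the genotypes could pass 0.05. Nothing in the labels says that the replicates came from separate flies.

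roo carried more peaks than any other transposon in these lists, with 34 ahead of 23 on 412, 21 each on blood and Tabor and 18 on Idefix. The control libraries had 10 (control 1) and 9 (control 2) roo peaks, and the Sam-S libraries 8 (Sam-S 1) and 7 (Sam-S 2). They ran from base 401 to base 8689 of the element, were 219 to 873 bp long with a median of 358.5 bp, and had fold enrichments over input between 1.06 and 2.61. Most of these enrichments were small. Only 4 roo peaks (11.8%) reached a fold of 1.5, against 45 of 110 peaks (40.9%) on the other transposons. Input depth differed between the elements, with a median background at the summits of 10283 tags on roo, 2484 on 412 and 461 on Tabor. The lowest roo fold, 1.06 in control 2, was listed with a −log10 p of 11.65. Peak numbers are therefore no ranking of the elements by methylation, and whether depth bears on them was not tested.

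**Figure D1:**
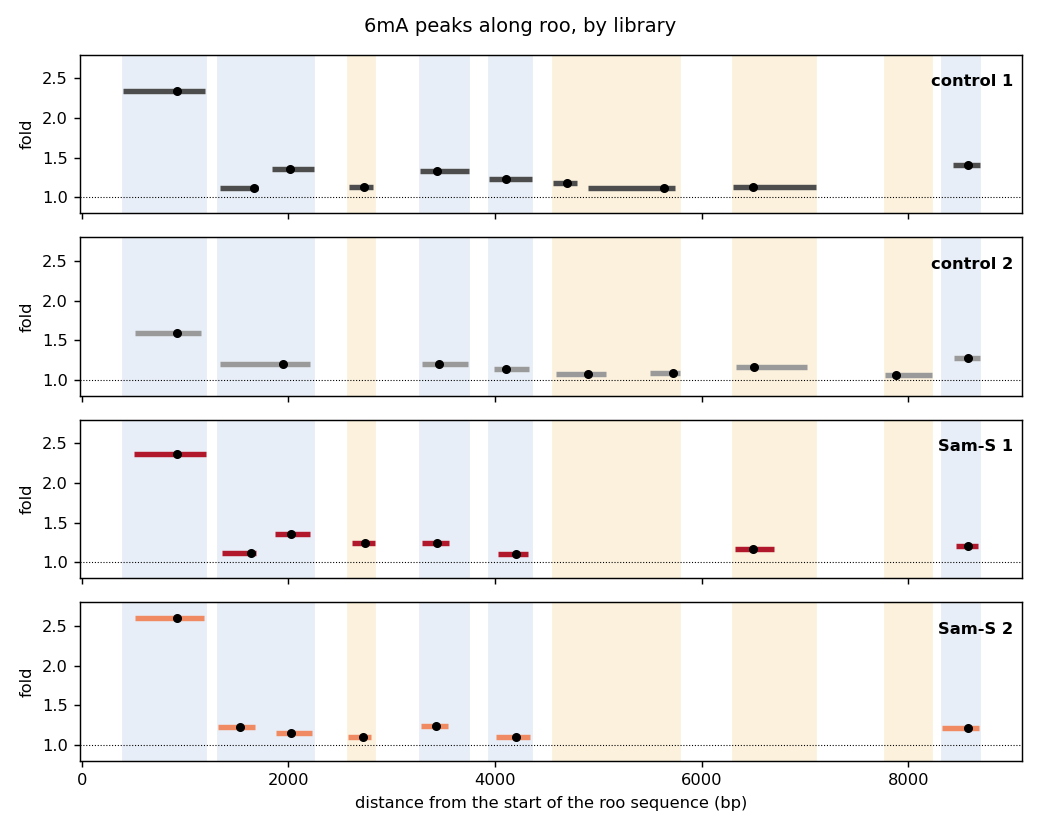
Peaks on roo in each library, with distance from the start of the roo sequence on the x axis and fold enrichment over input on the y axis. Each horizontal bar spans a peak at the height of its summit fold, each black point marks its summit, blue shading marks the 5 positions with a peak in all 4 libraries and yellow shading the other 4. The peak near base 925 is the highest in every panel, and the yellow position from 4562 to 5785 holds bars in the control panels only.

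The 4 peaks above 1.5 were 1 in each library and lay at the same place, from base 401 to base 1200. Their summits were at bases 925 and 919 in control 1 and 2, and at base 925 in both Sam-S libraries. The fold there was 2.33 and 1.60 in control 1 and 2, and 2.36 and 2.61 in Sam-S 1 and 2. Control 2 was far below the other 3 libraries, which lay close together, and both Sam-S libraries were above both control libraries. By fold this peak ranked 2 in every library's list of transposon peaks, behind a peak on blood in 3 libraries and on gypsy10 in control 2. By significance it ranked 1 in every list, with a −log10 q of 1753 and 434 in control 1 and 2, and 1648 and 2339 in Sam-S 1 and 2.

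The other roo peaks were much lower. Outside the leading position their folds ran from 1.11 to 1.40 in control 1 and from 1.06 to 1.27 in control 2. The ranges were 1.11 to 1.36 and 1.096 to 1.24 in Sam-S 1 and 2. The leading fold was 1.75 and 1.32 times the mean of the other 4 positions shared by all libraries in control 1 and 2, and 1.92 and 2.18 times in Sam-S 1 and 2. The profile of roo was thus steepest in the Sam-S libraries, without overlap between the genotypes. This ratio averaged 1.54 ± 0.303 in control and 2.05 ± 0.181 in Sam-S (SD, n = 2), a log2 difference of 0.43 (exact permutation p = 0.333). Batch 1 gave 0.13 and batch 2 gave 0.72, and the value without control 2 was 0.22.

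The depth behind these folds was large. The fold and p of each peak together fix the pileup, meaning the number of tags stacked at the summit, and the input background, if the lists follow the formulas of the genome lists. On that basis the pileup of roo peaks ran from 5430 to 15781 tags and the background from 4513 to 13777. The genome lists kept 1 tag per position and extended tags to 200 bp, which allows at most 400 stacked tags over both strands before scaling. If the formulas hold, the transposon lists were not made with those 2 settings together and hold reads that repeat start positions. The median background at the summits was 10283 tags on roo, against 2484 on 412, 1922 on blood and 948 on Idefix. roo had the highest input background at its summits of the 8 transposons. Counting error on a roo fold, as a 95% exact Poisson interval on the pileup, was within 1.56% to 2.67% of the fold on either side. It covers counting error only, and reads stacked on the same start need not be independent molecules. The leading fold had an interval of 1.57 to 1.63 for control 2 and of 2.30 to 2.37 for control 1. For Sam-S 1 the interval was 2.32 to 2.40, overlapping that of control 1, and for Sam-S 2 it was 2.57 to 2.65. These intervals leave out the error of the background.

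At the leading summit the input background was low in every library, while the immunoprecipitated pileup stood differently against the rest of the element from library to library. The background was 6261 and 6685 tags in control 1 and 2, and 5687 and 6056 in Sam-S 1 and 2. In the same order, these are 0.561, 0.571, 0.560 and 0.642 times the median background at the library's other roo summits. The pileup was 14621 and 10673 tags in control 1 and 2, and 13431 and 15781 in Sam-S 1 and 2. In the same order, it was 1.17, 0.819, 1.13 and 1.46 times the median of the other summits. Control 2 thus differed from the rest in its pileup, which was the lowest, more than in its background. The ratio of pileups averaged 0.996 ± 0.249 in control and 1.29 ± 0.237 in Sam-S (SD, n = 2, exact permutation p = 0.667). On this measure Sam-S 1 was slightly below control 1. The medians run over 9 and 8 other peaks in control 1 and 2, and 7 and 6 in Sam-S 1 and 2. They do not cover the same stretches, so the order of Sam-S 1 and control 1 may depend on which peaks were called.

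**Figure D2:**
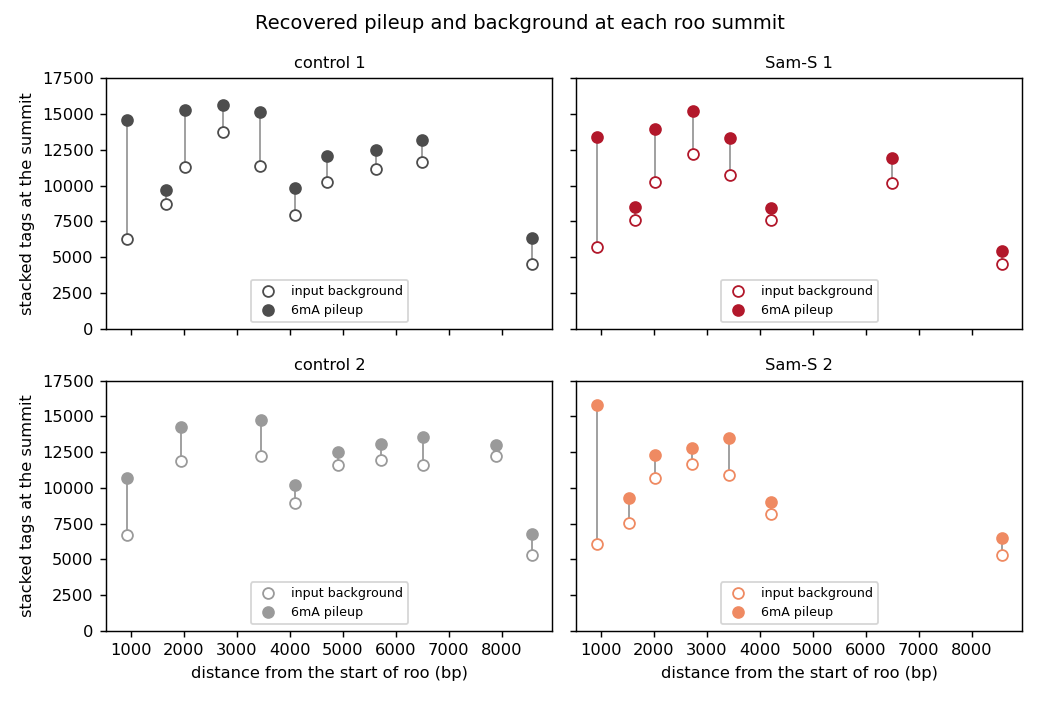
Stacked tags at the summit of each roo peak on the y axis, against distance from the start of the roo sequence on the x axis, in 1 panel per library. Filled points are the recovered immunoprecipitated pileup, open points the input background, and the grey line between them is the excess. The longest line is at the leading summit, where the background lies between 5687 and 6685 tags in the 4 libraries.

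Of the 9 roo positions, 5 (55.6%) had a peak in all 4 libraries, beside 44.7% of the 47 transposon positions and 42.1% of the 38 on the other transposons. Ordered by their mean fold over the 4 libraries, they were 401 to 1200 at 2.22 ± 0.436, 1320 to 2244 at 1.29 ± 0.0825, 8321 to 8689 at 1.27 ± 0.0917, 3274 to 3744 at 1.25 ± 0.0568 and 3944 to 4358 at 1.15 ± 0.0613 (SD, n = 4). The second, the third and the fourth in this order differed by less than their spread. The first was the highest and the last the lowest of the 5 in each of the 4 libraries.

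The summits of several positions fell on almost the same base in every library. At 8321 to 8689 the summit was at base 8572 in all 4 libraries. At 3274 to 3744 it was at 3442 and 3454 in control 1 and 2, and 3442 and 3425 in Sam-S 1 and 2. At 3944 to 4358 the summits separated by genotype, at base 4105 in both control libraries and at bases 4205 and 4204 in Sam-S 1 and 2. The peaks there also began further along the element in Sam-S, at 4032 and 4012, than in control, at 3944 and 3993. This was the only one of the 5 positions where the summits of the genotypes were far apart and close within each genotype, and it was singled out after its values were seen. Over the 5 positions the summit range had a median of 29 bp, beside 39.5 bp over the 16 shared positions of other transposons.

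The direction of the difference between the genotypes varied along the element, and no difference could pass the test. Both Sam-S folds were above both control folds at 1 of the 5 shared roo positions, beside 23.8% of all 21 shared transposon positions. They were below both control folds at 2 of the 5, beside 14.3% of the 21. With counts this small the shares on roo are a description.

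The position where Sam-S was higher is the leading one. Its mean fold was 1.97 ± 0.522 in control and 2.48 ± 0.173 in Sam-S (SD, n = 2). On the log2 scale Sam-S was higher by 0.36 (exact permutation p = 0.333), by 0.02 in batch 1 and by 0.71 in batch 2. Without control 2 it was 0.09 and without control 1 it was 0.64, so its size rested on which control library was used. The highest fold was without overlap and higher in Sam-S for 42.9% of the 7 transposons with peaks in all 4 libraries, roo being 1 of them.

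The positions where Sam-S was lower are 3944 to 4358 and 8321 to 8689. At 3944 to 4358 the fold was 1.24 and 1.14 in control 1 and 2, and 1.11 and 1.10 in Sam-S 1 and 2. The Sam-S libraries were nearly equal there and control 1 stood highest. The log2 difference was -0.10 (exact permutation p = 0.333), -0.16 within batch 1 and -0.05 within batch 2. It was -0.16 without control 2 and -0.05 without control 1, a smaller size.

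At 8321 to 8689, the last position on the element, the fold was 1.40 and 1.27 in control 1 and 2, and 1.20 and 1.22 in Sam-S 1 and 2. Again the Sam-S libraries lay close together, below both control libraries. The log2 difference was -0.14 (exact permutation p = 0.333), with -0.22 within batch 1 and -0.07 within batch 2. It was -0.21 without control 2 and -0.07 without control 1. Since the summit was at base 8572 in every library, these folds refer to 1 base, where the pileup was 6366 and 6761 tags in control 1 and 2, and 5430 and 6456 in Sam-S 1 and 2. The background was 4535 and 5313 tags in control 1 and 2, and 4513 and 5308 in Sam-S 1 and 2. No depth adjustment was added to these tag numbers, and whether the caller had scaled them is not given. The batch 2 inputs had the higher backgrounds and more tags before any scaling, and a link between these was not tested.

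**Figure D3:**
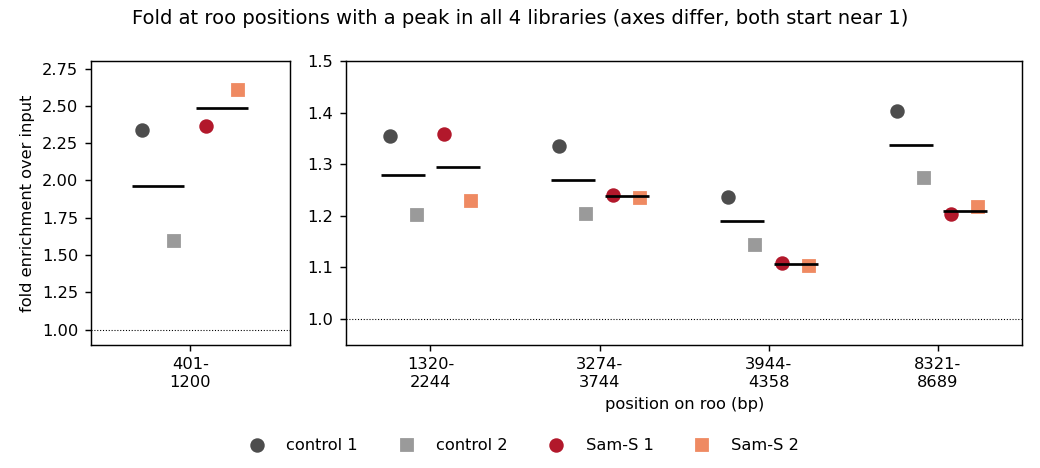
Fold enrichment over input on the y axis at the 5 roo positions with a peak in all 4 libraries, by position on the x axis. Circles are batch 1 and squares batch 2, grey for control and red for Sam-S, black lines are the means of 2 libraries, and the left panel has its own scale. Sam-S points lie above both control points at 401 to 1200 and below both at 3944 to 4358 and 8321 to 8689.

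At the other 2 shared positions the genotypes overlapped. At 3274 to 3744 the fold was 1.34 and 1.20 in control 1 and 2, and 1.24 and 1.24 in Sam-S 1 and 2, with both Sam-S values between the control values. The peaks were nevertheless shorter in Sam-S, with 261 and 259 bp against 471 and 442 bp in control 1 and control 2. At 1320 to 2244 the highest fold was 1.35 and 1.20 in control 1 and 2, and 1.36 and 1.23 in Sam-S 1 and 2. Batch 1 was higher than batch 2 there in both genotypes. This position holds 2 peaks in every library but control 2, where a single peak of 873 bp spans it. The Sam-S 2 value came from the first of them, with its summit at base 1530, and at the second, with its summit at 2027, Sam-S 2 had a fold of 1.15, below control 2.

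Over the 5 shared positions, Sam-S was higher in both batches at 2 (42.9% of the 21 transposon positions were so), lower in both at 2 (19.0% of the 21) and of opposite direction at 1. The 2 higher ones include 1320 to 2244, where batch 2 compares summits at different bases, 1950 in control 2 and 1530 in Sam-S 2. The mean log2 fold over the 5 shared positions corresponded to a fold of 1.49 and 1.27 in control 1 and 2, and 1.40 and 1.40 in Sam-S 1 and 2. Both Sam-S values lay between the control values, and the log2 difference was 0.02 (exact permutation p = 1). Without the leading position it was -0.066, and without control 2 it was -0.057, with 7 positions then shared. Without control 1 it was 0.13.

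roo was also set against the other transposons within each library. The geometric mean fold of its 5 shared positions was 0.916 and 0.978 times that of the 16 shared positions of the others in control 1 and 2, and 0.850 and 0.867 times in Sam-S 1 and 2. Relative to other transposons roo was thus lower in both Sam-S libraries than in both control libraries. The log2 difference was -0.14 (exact permutation p = 0.333), -0.11 within batch 1 and -0.17 within batch 2. Without control 2 it was -0.06. The median log2 difference at single positions was -0.03 for the 5 on roo and 0.10 for all 21.

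**Figure D4:**
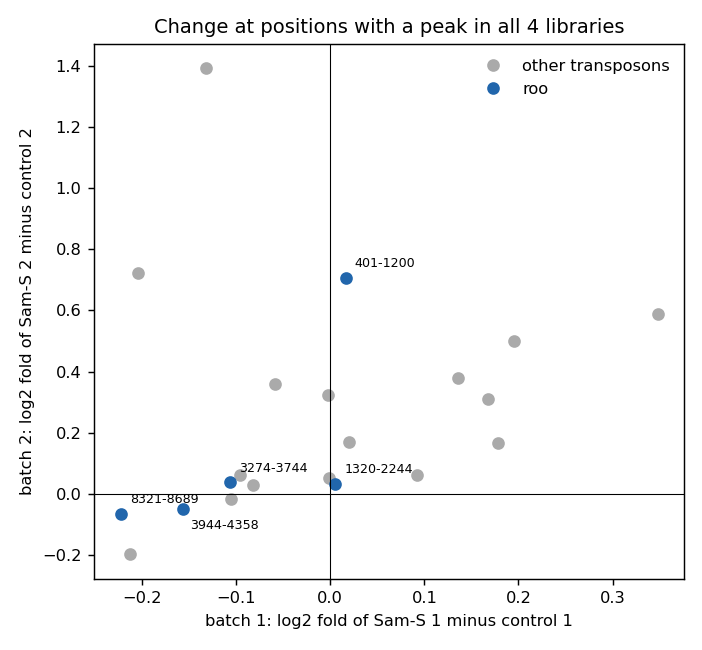
Log2 fold of Sam-S minus control at the 21 transposon positions with a peak in all 4 libraries, for batch 1 on the x axis and batch 2 on the y axis. Blue points are the 5 roo positions, labelled by their first and last base, and grey points the 16 positions of other transposons. The roo position 401 to 1200 lies at 0.02 and 0.71, and 3944 to 4358 and 8321 to 8689 lie below 0 on both axes.

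The extent of roo under peaks was smaller in Sam-S. Peaks covered 4827 bp and 4440 bp in control 1 and 2, and 2740 bp and 2556 bp in Sam-S 1 and 2. The genotypes did not overlap, and libraries of the same genotype lay close together. The mean was 4633.5 ± 274 bp in control and 2648 ± 130 bp in Sam-S (SD, n = 2), a log2 difference of -0.81 (exact permutation p = 0.333). Batch 1 gave -0.82 and batch 2 gave -0.80, and the value without control 2 was -0.87. Both Sam-S libraries held fewer immunoprecipitated tags, at 45068709 and 39591292, than the control libraries, at 47403833 and 49800736. Their median background at roo summits was also lower, at 8889 and 8186 tags against 10712.5 and 11579, but these medians run over different peaks. At the leading summit the background was 5687 and 6056 tags in Sam-S 1 and 2, against 6261 and 6685 in control 1 and 2. At base 8572 it was nearly equal, at 4513 and 5308 against 4535 and 5313. Whether depth bears on the covered length or the number of peaks was not tested. Of the 7 transposons with peaks in all 4 libraries, 28.6% had a covered length that was lower in both Sam-S libraries than in both control libraries, namely roo and Idefix. Idefix, another LTR retrotransposon, had 3179 and 2010 bp in control and 1744 and 1778 bp in Sam-S. Tabor and blood were also lower within both batches, with overlap of the genotypes. The log2 difference was -0.92 for Tabor (-0.40 in batch 1 and -1.45 in batch 2) and -0.09 for blood.

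roo held 27.6% and 33.6% of all transposon bases under peaks in control 1 and 2, and 18.4% and 21.4% in Sam-S 1 and 2. These shares averaged 30.6 ± 4.23% in control and 19.9 ± 2.17% in Sam-S (SD, n = 2, exact permutation p = 0.333), without overlap. Of the peaks themselves, control 1 had 26.3% on roo (95% Wilson interval 15.0 to 42.0%) and control 2 had 28.1% (15.6 to 45.4%). The share was 19.5% in Sam-S 1 (10.2 to 34.0%) and 21.2% for Sam-S 2 (10.7 to 37.8%). The intervals are within a library and treat each peak as an independent draw. Peaks that the caller splits or joins along the same element need not be independent. Over libraries the share averaged 27.2 ± 1.28% in control and 20.4 ± 1.20% in Sam-S (SD, n = 2, exact permutation p = 0.333, the smallest possible), without overlap.

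**Figure D5:**
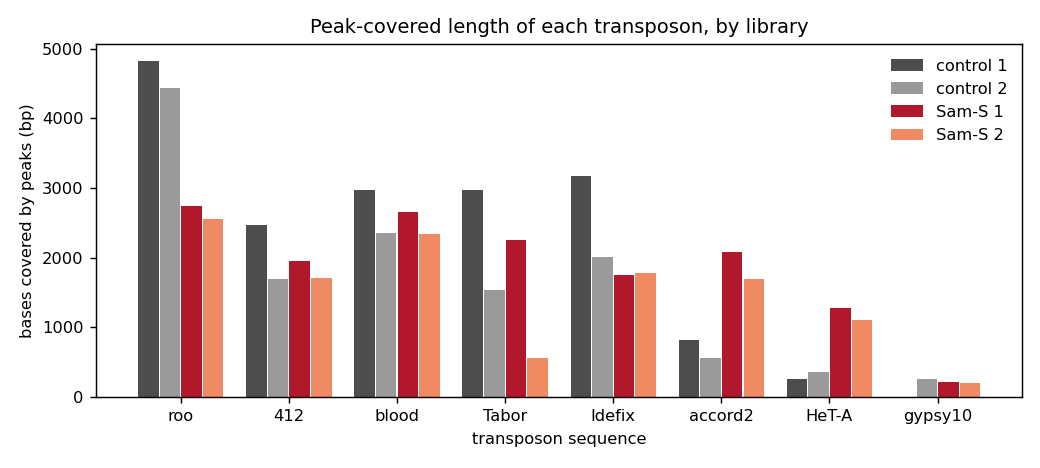
Bases covered by peaks on the y axis for each of the 8 transposon sequences on the x axis, with 1 bar per library. roo bars are 4827 and 4440 bp in control and 2740 and 2556 bp in Sam-S, and gypsy10 has no bar for control 1.

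Base by base, 5729 bp of roo lay under a peak in at least 1 library and 2049 bp (35.8%) in all 4. Bases covered in the 2 controls and in no Sam-S library came to 1188 bp, and bases with the opposite pattern to 0 bp. The bases covered in Sam-S were therefore a subset of the control bases, apart from 143 bp covered in Sam-S 2 alone and 22 bp in Sam-S 1 alone. Most of the difference lay at the 4 positions without a peak in every library. There the mean covered length was 2012.5 bp in control and 413 bp in Sam-S, against 2621 and 2235 bp at the 5 shared positions.

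These 4 positions all had weak peaks. The stretch from 4562 to 5785 had peaks in the 2 controls and no peak in Sam-S, as did 6.38% of the 47 transposon positions, while none of the roo positions had the opposite pattern, found at 8.51% of the 47. With peaks joined anew without control 1, the opposite pattern held at 1 roo position, and control 2 had 3 positions with no peak in Sam-S. Its 2 peaks in the stretch from 4562 to 5785 then counted as separate positions. Control 1 had 2 peaks there, with summits at bases 4692 and 5631 and folds of 1.18 and 1.12. Control 2 also had 2, with summits at 4899 and 5721 and folds of 1.08 and 1.09. The lowest fold of any roo peak was 1.11 and 1.096 in Sam-S 1 and 2, so both control 2 folds at this stretch were below anything listed on roo in Sam-S. A stretch without a peak may still have been enriched to that degree.

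From 6301 to 7109 there were peaks in control 1 (fold 1.13), control 2 (1.17) and Sam-S 1 (1.18), but not in Sam-S 2. The summit was at base 6500 in control 1 and Sam-S 1 and at 6508 in control 2, and the peak was 809, 687 and 378 bp long in control 1, control 2 and Sam-S 1. From 2576 to 2837 there were peaks in control 1 (1.14), Sam-S 1 (1.24) and Sam-S 2 (1.10), but not in control 2. The stretch from 7772 to 8225 had a peak in control 2 only, with the lowest fold of all roo peaks, 1.06.

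The number of roo peaks was 9.5 ± 0.707 in control and 7.5 ± 0.707 in Sam-S (SD, n = 2), a log2 difference of -0.34 (exact permutation p = 0.333). roo was the only transposon with fewer peaks in both Sam-S than in both control libraries, which is 14.3% of the 7 with peaks in all 4 libraries. Tabor fell further and within both batches, from 8 to 6 in batch 1 and from 5 to 2 in batch 2. Its log2 difference was -0.87, with overlap of the genotypes. The difference on roo rested on the stretch from 4562 to 5785: without it there were 8 and 7 peaks in control and 8 and 7 in Sam-S. The log2 difference in covered length without that stretch was -0.49, and within the 5 shared positions alone it was -0.23. Among peaks with a fold of at least 1.5, which leaves only the leading peak, it was -0.06 (exact permutation p = 1). That peak was 795 and 639 bp long in control 1 and 2, and 695 and 671 bp in Sam-S 1 and 2, with overlap of the genotypes.

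The median fold of roo peaks was 1.21 and 1.17 in control 1 and 2, and 1.22 and 1.22 in Sam-S 1 and 2, a log2 difference of 0.04 (exact permutation p = 0.333). It was 0.02 without control 2 and 0.06 without control 1. Each list holds a different set of roo peaks, so these medians do not compare the same stretches.

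Among the other transposons with peaks in all 4 libraries, accord2 and HeT-A were most like roo in how the highest fold varied over the 4 libraries. accord2 is an LTR retrotransposon and HeT-A a non-LTR retrotransposon of the telomeres. Likeness was the mean absolute difference of the log2 highest fold, centred on each transposon's own mean, which was 0.0781 for accord2 and 0.0829 for HeT-A. The highest fold was 2.07 and 1.28 in control 1 and 2, and 2.12 and 2.07 in Sam-S 1 and 2 for accord2. For HeT-A it was 1.69, 1.40, 1.90 and 2.19 in the same order. All 3 elements had their lowest value in control 2, as did blood, 412 and Idefix, but not Tabor. In covered length roo differed in direction from both, which had log2 differences of 1.47 and 1.96, against -0.81 for roo.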

How the data were processed

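Per the labels, genomic DNA of ovaries was immunoprecipitated with a 6mA antibody in 4 libraries, and 4 input libraries enter only through the authors' peak calling. The authors deposited 1 transposon list per library, giving each peak's fold (a ratio), its significance as −log10 p and −log10 q, and a display score that was not analysed. Its caller and settings are not given in the sources used here; Bowtie2 is named in the submitters' processing notes. Genome lists were made with MACS 2.1.1.20160309, per the file headers. From these lists the deposited pileup signal was used for a check only. The pileup recovered from fold and p differed from it by 0 tags in batch 1 and by at most 8.97 in batch 2, over a part of the peaks. The highest pileups in those lists ran from 399 to 478.84 tags, so the check did not reach the range of the roo pileups. The caller scaled the batch 2 pileups, and whether it scaled the batch 1 inputs was not checked.

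Positions were shifted to 1-based and joined where peaks shared 1 bp; a position takes a library's highest fold. Joining and recovery were tested on simulated data, with positions too far apart to join each other and pileups that were not scaled. Genotypes were compared by the exact permutation test, on log2 values unless a share is given. The batch label equals the replicate number, so the numbers pair the libraries; deviations of batch partners from their group means correlated at 0.0717 over 21 positions. Every roo position is described; other transposons are named for the likeness rule (the 2 nearest) or beside a count. The members and lists were chosen with earlier results of these data known. Alternatives were stricter cutoffs, equal list lengths, other joining rules and summaries, the replicate block and leaving out each library. Calculations ran in Python 3.11.15 with pandas 2.3.3, numpy 2.4.6 and scipy 1.17.1; plots were drawn with matplotlib 3.10.9.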

Additional observations from a re-analysis of the deposited data

How the results depend on the processing

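No exact test could pass 0.05, so directions and sizes were compared. Peaks on roo all had a −log10 q above 5, so that cutoff moved no value of roo alone. With folds of at least 1.5, which leaves 1 roo peak per library, the log2 difference in peak number was 0, no position was in 1 genotype only (0, from 1), and roo against other transposons turned from -0.14 to 0.20, over 1 position each. Settings chosen after the data were seen left out the leading position, turning the mean log2 difference at shared positions from 0.02 to -0.066, left out the stretch from 4562 to 5785, giving a difference in peak number of 0, or kept only positions shared by all libraries, turning it from -0.34 to 0.13. Requiring overlap of 50% of the shorter peak gave 2 positions in 1 genotype only, both in control. With batch as a replicate block the smallest possible p is 0.5, and the differences were unchanged (-0.81 for covered length, p = 0.5 in the exact test).

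Leaving out each library in turn gave log2 differences from -0.44 to -0.25 for peak number, -0.87 to -0.75 for covered length, 0.09 to 0.64 for the highest fold, 0.02 to 0.06 for the median fold, -0.057 to 0.13 at shared positions (negative without control 2) and -0.15 to -0.06 for roo against other transposons. The number of positions in 1 genotype only ran from 1 to 4, with 4 without control 1 (3 in control and 1 in Sam-S) and 2 without control 2 or without Sam-S 1. The difference in highest fold was 0.14 as a mean of the 3 highest peaks, and that in median fold was 0.23 as a length-weighted mean. The difference in covered length was negative under all 10 alternatives run, but not all of these could or did change it. The −log10 q cutoff and equal list lengths left it at exactly -0.81, and the replicate block cannot alter a difference of means. With folds of at least 1.5 it shrank from -0.81 to -0.06, with the genotypes overlapping and batch 2 at 0.07.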
